A study of Mus musculus with 12 samples.

Results

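The colony-stimulating factors and their receptors are described here as 7 genes over 4 populations of sorted mouse skin cells. The genes are Csf1r, its ligands Csf1 and Il34, the receptor chains Csf2ra, Csf2rb and Csf2rb2, and Csf3r. They were chosen by gene symbol, with 1 probe set each, from 19938 genes measured on 12 arrays. Untreated C57BL/6 animals (strain given as B6 wild-type SPF) supplied the skin, and 3 arrays were made for each population: melanophages with MHC-II, melanophages without it, macrophages with MHC-II and macrophages without it. They are called MHC-II-positive and MHC-II-negative. Melanophages are macrophages filled with melanin. By its labelled phenotype every sample carried CD11b and CD64 and lacked CD24, CCR2 and Ly6c, with a high side scatter (SSC-A) for melanophages. For macrophages the titles give a high and the phenotype field a low side scatter. No age, sex or pooling of the animals is stated in the labels. Whether arrays of 1 group stem from separate mice is not stated either, so a p-value here measures the spread between these arrays, which may be technical.

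The receptor encoded by Csf1r (CSF1R) is the tyrosine kinase on which most tissue macrophages depend for survival. It has a pair of ligands: CSF1, made by fibroblasts and endothelium among others, and IL-34, which in skin comes chiefly from keratinocytes and sustains Langerhans cells. Granulocyte-macrophage colony-stimulating factor (GM-CSF) binds an alpha chain from Csf2ra and signals through the beta chain from Csf2rb, which is shared with the receptors for IL-3 and IL-5 and carries the kinase JAK2. Mice have a further beta chain, from Csf2rb2, that serves IL-3 only. The receptor for granulocyte colony-stimulating factor (G-CSF), from Csf3r, is best known from neutrophils and their precursors.

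Values are log2 expression values as the authors deposited them, and the medians of the 12 arrays over all probe sets lay between 2.97 and 3.08. A value near those medians cannot be told from a gene that is off, and because probe sets differ in brightness, levels are compared between groups and not between genes. Of 10 macrophage markers, 9 were measured, and all 9 lay over 1 log2 unit above the array medians in each of the 4 groups. Of the markers of keratinocytes (7), endothelium (5) and melanocytes (6), 0 did so in any group. Arrays correlated with their group mates at a mean r of 0.972 to 0.988. MHC-II-positive macrophages replicate 3 and MHC-II-negative macrophages replicate 1 stood farthest from their mates (SD of the difference 0.356 and 0.406, against 0.241 to 0.311 for the other 10 arrays), and results that rest on them are given with and without them.

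RefSeq promoters (assembly GRCm38.p6) were given for 4 of the 7 genes: Csf1, Csf2ra, Csf2rb2 and Csf3r. The transcription factor PU.1, encoded by Spi1, is known, largely from human promoters, to drive the receptor genes of this family through purine-rich sites, so the 250 bases before the start site were searched for its core GAGGAA on both strands (TTCCTC on the other). In the promoters of 3 of the 4 genes the core occurred at least once, and it occurred in 23.3% of 32851 promoter windows of that length. The sequences of those 3 receptor genes are shown because they hold the core, and that of Csf1, which does not, is left out. Capitals mark the core, and the last base of each lies just before the start site. In Csf2ra there are 2 cores that begin 14 and 8 bases before the start site, in Csf2rb2 there is 1 on the opposite strand beginning 167 bases before it, and in Csf3r there is 1 beginning 86 bases before it.
Csf2ra (chr19:61228419-61228668, minus strand): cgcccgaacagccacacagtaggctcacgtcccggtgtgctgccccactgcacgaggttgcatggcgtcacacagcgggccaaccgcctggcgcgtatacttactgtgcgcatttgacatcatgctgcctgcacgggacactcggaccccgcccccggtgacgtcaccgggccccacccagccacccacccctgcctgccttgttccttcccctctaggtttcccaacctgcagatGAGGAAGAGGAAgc
Csf2rb2 (chr15:78305722-78305971, minus strand): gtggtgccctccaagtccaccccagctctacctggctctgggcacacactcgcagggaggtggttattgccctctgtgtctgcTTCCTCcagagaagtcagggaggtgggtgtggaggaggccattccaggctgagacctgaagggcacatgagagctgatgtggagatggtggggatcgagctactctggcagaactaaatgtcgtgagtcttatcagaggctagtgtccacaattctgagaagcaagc
Csf3r (chr4:126024409-126024658, plus strand): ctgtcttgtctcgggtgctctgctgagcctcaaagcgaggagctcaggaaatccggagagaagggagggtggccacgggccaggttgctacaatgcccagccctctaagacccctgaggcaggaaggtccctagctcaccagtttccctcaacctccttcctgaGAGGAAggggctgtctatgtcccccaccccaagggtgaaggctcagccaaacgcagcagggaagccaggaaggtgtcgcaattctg
A match of these letters is a description of the sequence and not a measured binding site. Spi1 itself averaged 8.78 ± 0.36 in MHC-II-positive and 8.77 ± 0.06 in MHC-II-negative melanophages, against 9.20 ± 0.24 in MHC-II-positive and 8.88 ± 0.41 in MHC-II-negative macrophages (log2, SD, n = 3).

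None of the 7 genes passed the test in any of the 7 comparisons of the design (limma, Benjamini-Hochberg over 19938 genes, adjusted p under 0.05). Between the MHC-II classes, averaged over melanophages and macrophages, 0 of 7 passed, where 0.762% of all genes did. At an unadjusted p under 0.05 stood 4 of the 7 there, where 9.23% of all genes did. All 4 were receptor chains with higher values in MHC-II-positive cells: Csf2ra, Csf2rb, Csf2rb2 and Csf3r. Between melanophages and macrophages, averaged over MHC-II class, 0 of 7 passed (0.12% of all genes) and 1, Csf3r, had an unadjusted p under 0.05 (7.52% of all genes). Within melanophages, 0 of 7 passed between the MHC-II classes (0.211% of all genes) and 0 had an unadjusted p under 0.05 (5.7%). Within macrophages, 0 passed (0.341%) and the same 4 receptor chains had an unadjusted p under 0.05 (7.83%). Melanophages against macrophages gave 0 passing genes of the 7 within MHC-II-negative cells (0.00502% of all genes), where 0 had an unadjusted p under 0.05 (5.65%). Within MHC-II-positive cells 0 passed (0.015%) and Csf3r alone of the 7 had an unadjusted p under 0.05 (6.3%). The interaction of MHC-II class and cell kind gave 0 of 7 (0% of all genes), and 0 with an unadjusted p under 0.05 (4.11%). The median log2 difference of the 7 genes between the MHC-II classes was 0.28, against -0.02 over all genes, and between melanophages and macrophages it was -0.11, against 0.01.

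**Figure D1:**
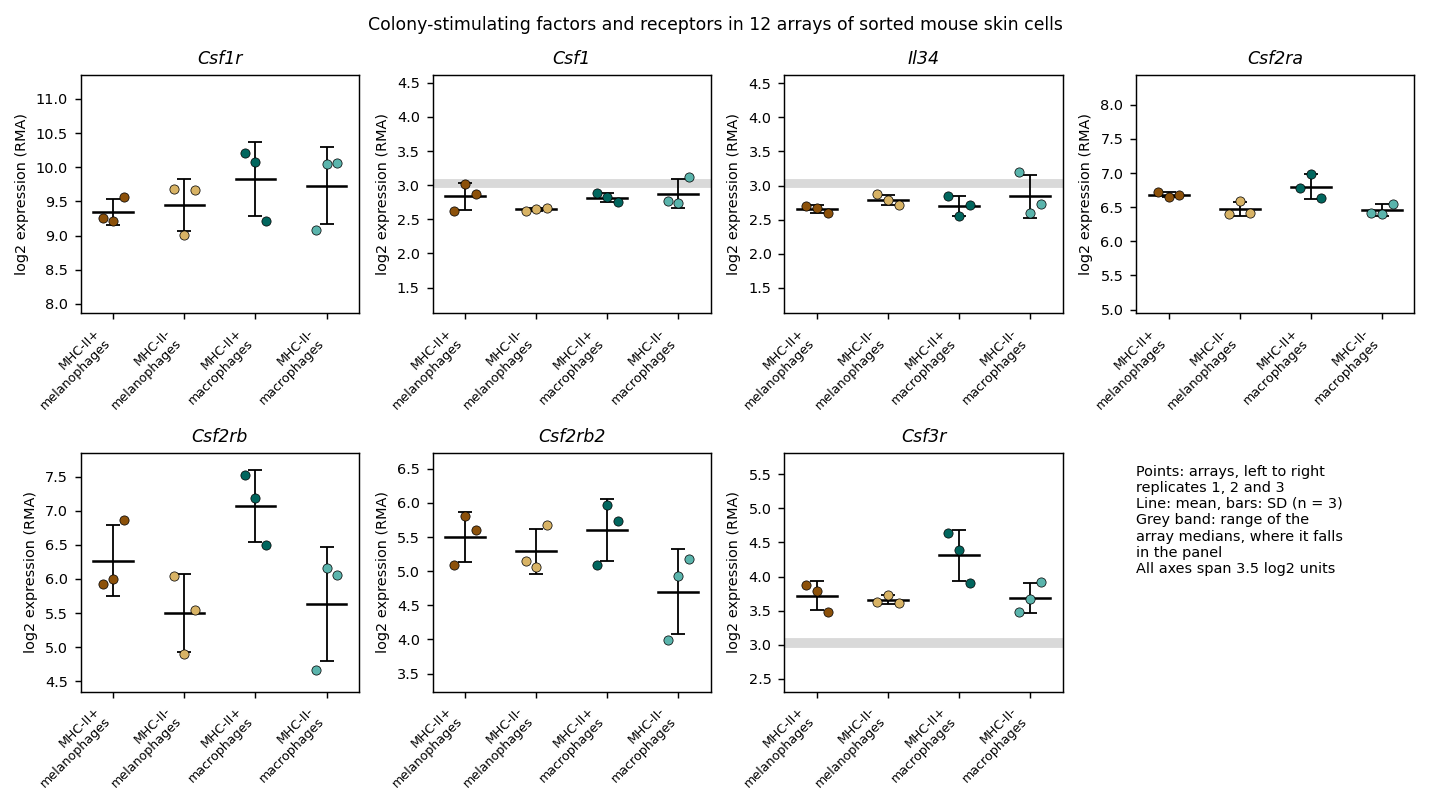
Log2 expression (y axis, all panels spanning 3.5 log2 units) of the 7 genes in the 12 arrays by group (x axis), with each array as a point, the mean as a line and the SD as bars (n = 3). Csf2rb spans the widest range, 4.67 to 7.52, and Csf1 and Il34 lie at or under the grey band of array medians (2.97 to 3.08) on all but 1 array each.

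Csf1r was strongly detected in all 4 groups. Its log2 values were 9.26, 9.22 and 9.57 in MHC-II-positive melanophages and 9.68, 9.01 and 9.67 in MHC-II-negative melanophages. They were 10.21, 10.08 and 9.21 in MHC-II-positive macrophages and 9.08, 10.05 and 10.06 in MHC-II-negative macrophages (replicates 1 to 3). The groups overlapped, and the macrophage arrays fell into 4 that lay above every melanophage array and 2 that lay among the melanophages, which were the arrays that stood apart from their group mates. No difference by MHC-II class was detectable: positive minus negative was -0.0015 (95% interval -0.51 to 0.50) averaged over cell kind, so a change of up to about 1.42-fold in either direction could have been missed. Melanophages minus macrophages, averaged over MHC-II class, was -0.38 ± 0.23 SE (adjusted p = 0.762, interval -0.89 to 0.12). Without the 2 far arrays that difference was -0.70 ± 0.14 (adjusted p = 0.0719), still above the threshold, in a fit that called 0.587% of genes and gave 14.1% of them an unadjusted p under 0.05. This was the largest difference among 20 alternative fits, and the smallest was -0.27, without replicate 2 of the MHC-II-negative melanophages. In a sorted bulk sample, fewer cells of a type and less RNA per cell cannot be told apart. In order of mean level the groups were MHC-II-positive macrophages, MHC-II-negative macrophages, MHC-II-negative melanophages and MHC-II-positive melanophages, and no neighbours in that order differed beyond their spread (smallest unadjusted p = 0.405).

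The ligands were close to background. Csf1 ranged over the 12 arrays from 2.62 to 3.13 and Il34 from 2.55 to 3.20, and for each only 1 array, in MHC-II-negative macrophages, exceeded the highest array median. Csf1 was 2.62, 3.01 and 2.88 in MHC-II-positive melanophages, 2.63, 2.64 and 2.66 in MHC-II-negative melanophages, 2.89, 2.82 and 2.75 in MHC-II-positive macrophages and 2.77, 2.73 and 3.13 in MHC-II-negative macrophages. Within MHC-II-negative cells the Csf1 arrays of melanophages all lay below those of macrophages, as they did for 3.91% of all genes (difference -0.23 ± 0.12 SE, adjusted p = 0.953). Without replicate 3 of the MHC-II-negative macrophages that difference was -0.11. Il34 was 2.70, 2.67 and 2.60 in MHC-II-positive melanophages, 2.87, 2.79 and 2.71 in MHC-II-negative melanophages, 2.84, 2.55 and 2.71 in MHC-II-positive macrophages and 3.20, 2.60 and 2.73 in MHC-II-negative macrophages. Its arrays in MHC-II-positive melanophages all lay below those in MHC-II-negative melanophages, as for 7.13% of all genes (-0.13 ± 0.14, adjusted p = 0.988). At these levels neither ligand can be told from a gene that is off. The neighbours in the order of group means did not differ beyond their spread for either ligand (smallest unadjusted p = 0.182 for Csf1 and 0.55 for Il34). Markers of the cells known to make IL-34 and CSF1 were low as well: the mean over 7 keratinocyte markers stayed between 2.89 and 3.13 on all arrays, and of 6 fibroblast markers 1, Dcn, lay over 1 unit above the array medians.

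Csf2ra, the GM-CSF-binding chain, had the smallest adjusted p of the 7 genes between the MHC-II classes. It was 6.72, 6.65 and 6.68 in MHC-II-positive melanophages and 6.41, 6.59 and 6.42 in MHC-II-negative melanophages. It was 6.79, 6.99 and 6.63 in MHC-II-positive macrophages and 6.41, 6.40 and 6.55 in MHC-II-negative macrophages. All MHC-II-positive arrays lay above all MHC-II-negative arrays within each cell kind, as did 1.11% of all genes (5.12% did so in melanophages). The difference was small and was 0.28 ± 0.07 SE averaged over cell kind, or 1.21-fold, and did not pass (limma adjusted p = 0.14, unadjusted p = 0.0021). It was 0.21 ± 0.10 in melanophages (adjusted p = 0.885) and 0.35 ± 0.10 in macrophages (adjusted p = 0.286), and these were not shown to differ (interaction -0.13 ± 0.14, adjusted p over 0.99). Melanophages and macrophages differed by -0.05 ± 0.07 averaged over MHC-II class, with an interval of -0.20 to 0.10. No neighbours in the order of group means differed beyond their spread (smallest unadjusted p = 0.0528).

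Csf2rb, the signalling chain, varied most. Its values were 5.93, 6.00 and 6.87 in MHC-II-positive melanophages and 6.04, 4.90 and 5.55 in MHC-II-negative melanophages, where the classes overlapped. They were 7.52, 7.18 and 6.50 in MHC-II-positive macrophages and 4.67, 6.16 and 6.06 in MHC-II-negative macrophages, and here every positive array lay above every negative one, as for 4.96% of all genes. MHC-II-positive cells had 2.15-fold more on average (log2 difference 1.10 ± 0.32 SE, unadjusted p = 0.00577), which did not pass over all genes (limma adjusted p = 0.232). The estimate was 0.77 ± 0.45 in melanophages and 1.44 ± 0.45 in macrophages (2.71-fold), with an interaction of -0.67 whose interval ran from -2.08 to 0.74. The melanophage difference was 0.47 without replicate 3 of the MHC-II-positive melanophages, and also 0.47 without replicate 2 of the MHC-II-negative melanophages. Without the array of MHC-II-negative macrophages that stood apart, the macrophage difference was 0.96 and the interaction -0.19. The interaction was -0.40 without replicate 1 of the MHC-II-negative melanophages and -0.44 without replicate 1 of the MHC-II-positive macrophages. Without both far arrays the macrophage difference was 1.24 ± 0.39. Melanophages minus macrophages, averaged over MHC-II class, was -0.47 ± 0.32 (adjusted p = 0.798), and without both far arrays -0.85 ± 0.25 (adjusted p = 0.177). Without replicate 2 of the MHC-II-negative melanophages it was -0.32. The order of group means was MHC-II-positive macrophages (7.07 ± 0.52), MHC-II-positive melanophages (6.27 ± 0.52), then MHC-II-negative macrophages (5.63 ± 0.83) and last MHC-II-negative melanophages (5.50 ± 0.57; SD, n = 3). No neighbours in this order differed beyond their spread, and the lowest minus the highest group was -1.57 ± 0.45 SE (unadjusted p = 0.00551, adjusted p = 0.211).

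Csf2rb2, the mouse IL-3 chain, lies beside Csf2rb on chromosome 15 and is closely related to it in sequence. How far probes of one gene respond to RNA of the other was not tested, so the 2 measurements may share signal. Csf2rb2 was 5.09, 5.81 and 5.61 in MHC-II-positive melanophages and 5.15, 5.05 and 5.67 in MHC-II-negative melanophages. It was 5.09, 5.97 and 5.74 in MHC-II-positive macrophages and 4.0, 4.93 and 5.18 in MHC-II-negative macrophages. The groups overlapped within both cell kinds. The MHC-II difference was 0.55 ± 0.24 SE averaged over cell kind (unadjusted p = 0.039, adjusted p = 0.504), with 0.21 ± 0.33 in melanophages and 0.90 ± 0.33 in macrophages. The lowest value belonged to the far array of MHC-II-negative macrophages, and without both far arrays the averaged difference was 0.34 ± 0.22 (unadjusted p = 0.147) and the macrophage one 0.48 ± 0.33. No neighbours in the order of its group means differed beyond their spread (smallest unadjusted p = 0.105). The correlation of Csf2rb2 with Csf2rb over the 12 arrays was 0.56, against 0.69 for Csf3r, 0.68 for Csf1r and 0.67 for Csf2ra with Csf2rb, as a description of arrays that share their group and RNA amplification.

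**Figure D2:**
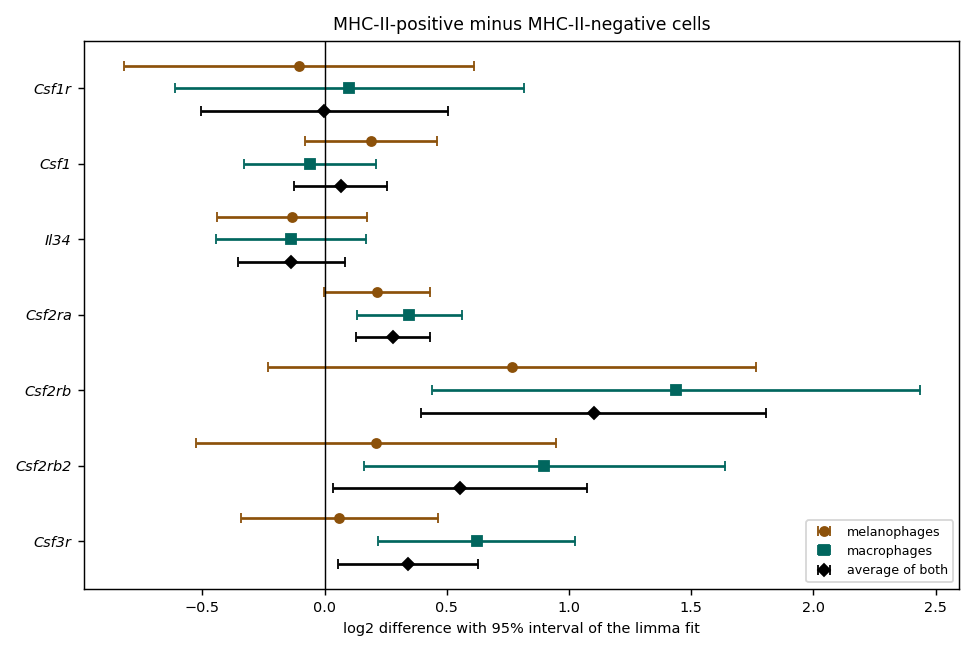
Log2 difference of MHC-II-positive minus MHC-II-negative cells (x axis, with the 95% interval of the limma fit) for each of the 7 genes (y axis), in melanophages, in macrophages and averaged. The averaged intervals of Csf2ra, Csf2rb, Csf2rb2 and Csf3r lie above 0 before adjustment, and no adjusted p is under 0.14.

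Csf3r, the G-CSF receptor, was dim, with 3.88, 3.79 and 3.48 in MHC-II-positive melanophages, and 3.63, 3.73 and 3.62 in MHC-II-negative melanophages. It was 4.65, 4.38 and 3.91 in MHC-II-positive macrophages and 3.48, 3.67 and 3.92 in MHC-II-negative macrophages. The MHC-II-positive melanophages all lay below the MHC-II-positive macrophages, as for 4.91% of all genes. The MHC-II-negative melanophages lay below the MHC-II-positive macrophages as well, as they also did for Csf1, Csf2ra and Csf2rb. The share of all genes that did so was not counted for that pair of groups. For Csf3r the other pairs of groups overlapped. Against MHC-II-positive macrophages the MHC-II-positive melanophages differed by -0.59 ± 0.18 SE (unadjusted p = 0.00809, adjusted p = 0.591). MHC-II-positive minus MHC-II-negative was 0.34 ± 0.13 averaged over cell kind (unadjusted p = 0.0235, adjusted p = 0.419), 0.62 ± 0.18 in macrophages (1.54-fold, adjusted p = 0.305) and 0.06 ± 0.18 in melanophages. The interaction, which tests whether these differ, was -0.56 ± 0.26 (unadjusted p = 0.0531, adjusted p over 0.99). The group means other than that of MHC-II-positive macrophages, 3.66 to 3.72, were under 1 unit above the array medians. The mean over 9 neutrophil markers was 3.16 to 3.35 on all arrays, and S100a8 was the 1 that lay over 1 unit above the array medians. S100a8 was at 6.93 in MHC-II-positive and 5.86 in MHC-II-negative melanophages. In macrophages it was at 5.53 in MHC-II-positive and 4.88 in MHC-II-negative cells. None of the 9 passed between the MHC-II classes averaged over cell kind (limma). Of the other markers, Ly6g was at 2.27 to 2.32 in all 4 groups. Without both far arrays Csf3r differed by -0.47 ± 0.10 between melanophages and macrophages, averaged over MHC-II class (adjusted p = 0.0818), against -0.31 ± 0.13 with all 12 arrays (adjusted p = 0.622). The difference was -0.23 without replicate 1 of the MHC-II-positive macrophages. By MHC-II class, the fit without both far arrays gave -0.79 ± 0.14 SE in MHC-II-positive cells (limma adjusted p = 0.0937). In MHC-II-negative cells it gave -0.14 ± 0.14 (adjusted p = 0.809). The interaction in that fit was -0.66 ± 0.20 (unadjusted p = 0.0101, adjusted p = 0.682), which did not pass.

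**Figure D3:**
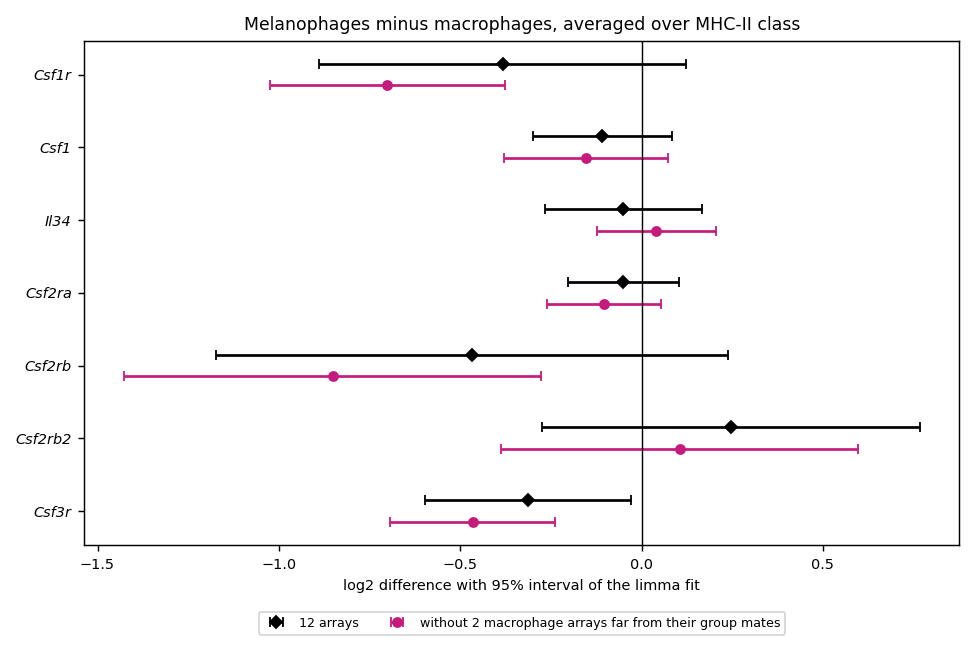
Log2 difference of melanophages minus macrophages averaged over MHC-II class (x axis, with the 95% interval of the limma fit) for each of the 7 genes (y axis), from all 12 arrays and without the 2 macrophage arrays far from their group mates. Without those arrays Csf1r moves to -0.70 and Csf2rb to -0.85, and neither passes after adjustment. For both genes this was the largest difference among the alternative fits.

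Markers of some other cells differed between the MHC-II classes in the same direction as the receptor chains. The monocyte markers measured, 3 of 5, had a mean of 4.32 to 5.07 in MHC-II-positive and 2.94 to 3.26 in MHC-II-negative melanophages, and of 4.04 to 5.64 in MHC-II-positive and 3.01 to 3.65 in MHC-II-negative macrophages. Of these, Ccr2 passed (3.23 ± 0.20 SE, adjusted p = 3.93e-05) although the cells were gated as lacking CCR2, while Plac8 stayed at 2.54 to 2.62 in all groups. Chil3, the remaining marker, was at 4.62 in MHC-II-positive and 3.19 in MHC-II-negative melanophages. In macrophages it was at 5.10 in MHC-II-positive and 3.34 in MHC-II-negative cells, and it did not pass. The 8 dendritic cell markers had a mean of 3.23 to 3.71 in MHC-II-positive and 2.97 to 3.11 in MHC-II-negative melanophages, and of 3.41 to 3.56 in MHC-II-positive and 2.92 to 3.21 in MHC-II-negative macrophages. There the homing receptor Ccr7 was the 1 marker over 1 unit above the array medians (difference 1.97 ± 0.27, adjusted p = 0.00645), with Xcr1 and Clec9a at 2.24 to 2.67 in every group. Flt3, Dpp4, Kmo and Zbtb46 were dim but had higher means in the MHC-II-positive class of both cell kinds. Flt3, for instance, was at 3.64 against 3.25 in melanophages and 3.61 against 3.18 in macrophages. Itgae and Clec9a had lower means there, and Xcr1 differed in direction between the cell kinds. Of the 8, only Ccr7 passed. Mast cells also carry the beta chain, and the mean over their 6 markers was 3.34 to 4.16 in MHC-II-positive and 3.39 to 4.37 in MHC-II-negative melanophages, and 3.25 to 3.62 in MHC-II-positive and 3.89 to 4.29 in MHC-II-negative macrophages. Of these mast cell markers Mcpt4 had group means of 5.61 to 6.78 and Cpa3 of 3.67 to 5.54, both lowest in MHC-II-positive macrophages, while Kit was at 2.63 to 2.86. None of the 6 passed between the MHC-II classes (limma), and Cpa3 had a difference of -1.17 ± 0.52 SE (unadjusted p = 0.0466, adjusted p = 0.531). Of 5 T and innate lymphoid cell markers, 1, Il7r, lay over 1 unit above the array medians and passed (1.94 ± 0.25, adjusted p = 0.00406). Of 3 Langerhans cell markers Cd207 passed as well, but lay over 1 unit above the array medians in MHC-II-positive macrophages only. It was at 5.17 there against 3.13 in MHC-II-negative macrophages, and at 3.17 in MHC-II-positive and 2.81 in MHC-II-negative melanophages. Of these 3 markers, 1 also passed between melanophages and macrophages averaged over MHC-II class. The part of RNA of these other cells in the receptor values was not tested.

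The remaining genes of the pathway were taken from 6 lists with 61 different genes, 57 of them measured. Between the MHC-II classes, averaged over cell kind, 4 of the 57 rose in MHC-II-positive cells, 0 fell and 53 did not pass, where 0.762% of all genes passed. Jak2, the kinase bound to the beta chain, was one of them, at 5.57 ± 0.41 in MHC-II-positive and 4.63 ± 0.17 in MHC-II-negative melanophages, and 5.67 ± 0.20 in MHC-II-positive and 5.14 ± 0.16 in MHC-II-negative macrophages (SD, n = 3). Its difference was 0.74 ± 0.14 SE, or 1.67-fold (adjusted p = 0.0371). That call was lost in 11 of 20 alternative fits (highest adjusted p = 0.0967), among them the fit with sets of consecutive title codes as a block (adjusted p = 0.0728) and 8 of the 12 that left out 1 array. The 4 arrays that could be left out without losing it were replicates 2 and 3 of the MHC-II-positive melanophages, replicate 3 of the MHC-II-positive macrophages and replicate 1 of the MHC-II-negative macrophages. It was the 1 call among 13 genes of JAK-STAT signalling downstream of the GM-CSF and G-CSF receptors, whose median difference was 0.11, against -0.02 over all genes. STAT5 (Stat5a, Stat5b), the feedback inhibitors Cish and Socs1 to Socs3 and the survival genes Bcl2l1 and Mcl1 were among those that did not pass.

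Genes that GM-CSF is known to induce in myeloid cells made the list with most calls between the MHC-II classes averaged over cell kind. They were 3 of 8, where 0.762% of all genes passed. These were the chemokines Ccl17 and Ccl22 and Itgax, the integrin chain CD11c. All 8 log2 differences were above 0, with a median of 0.51, against -0.02 over all genes. Ccl17 rose by 5.26 ± 0.40 SE averaged over cell kind (adjusted p = 0.000111). Ccl22 rose by 2.19 ± 0.14 SE averaged over cell kind (adjusted p = 4.04e-05) and Itgax by 1.26 ± 0.11 (adjusted p = 0.000379). Both chemokines passed within each cell kind, although Ccl17 in melanophages did not when replicate 3 of the MHC-II-negative class was left out (adjusted p = 0.0566), but Itgax did so in macrophages (1.91 ± 0.16, adjusted p = 0.000602) and not in melanophages (0.62 ± 0.16, adjusted p = 0.334). Its interaction did not pass, and neither did that of any other gene (limma). The list was chosen with earlier results of these arrays known and its genes also answer to other signals, so its count is not independent evidence of a direction. Pparg, Irf4, Dcstamp, Cish and Pim1 did not pass.

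No gene passed between the MHC-II classes among 4 further ligands (1 with an unadjusted p under 0.05, as for 9.23% of all genes), 4 further receptors (0), 20 kinases, adaptors and phosphatases of CSF1R signalling (2) and 10 transcription factors that bind the Csf1r locus (1). The ligand with the smallest adjusted p was Csf3, which encodes G-CSF, with 3.98 ± 0.12 in MHC-II-positive and 3.27 ± 0.20 in MHC-II-negative melanophages, and 3.80 ± 0.36 in MHC-II-positive and 3.40 ± 0.30 in MHC-II-negative macrophages (difference 0.56 ± 0.14 SE, adjusted p = 0.138). Csf2, which encodes GM-CSF, lay between 2.58 and 2.99 in the group means, and Il3 and Il5 between 1.99 and 2.79. Il3ra, the alpha chain that pairs with either beta chain for IL-3, had group means of 4.44 to 4.72, while Il5ra stayed at 2.42 to 2.60 (MHC-II difference -0.13 ± 0.06, adjusted p = 0.612). Ptprz1, the phosphatase described as a further IL-34 receptor, was at 2.24 to 2.26. In the CSF1R list the Src-family kinase Fgr came first (0.28 ± 0.07, adjusted p = 0.105). Between melanophages and macrophages, averaged over MHC-II class, Itgax was the 1 gene of the 57 that passed, where 0.12% of all genes did, and it was lower in melanophages (-0.80 ± 0.11, adjusted p = 0.0404). That call was lost in 9 of the 12 fits that left out 1 array, namely every melanophage and every MHC-II-negative macrophage array (highest adjusted p = 0.111). Within MHC-II-positive cells Itgax was lower in melanophages too (-1.44, adjusted p = 0.0229), a call lost in 9 of 21 alternative fits.

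**Figure D4:**
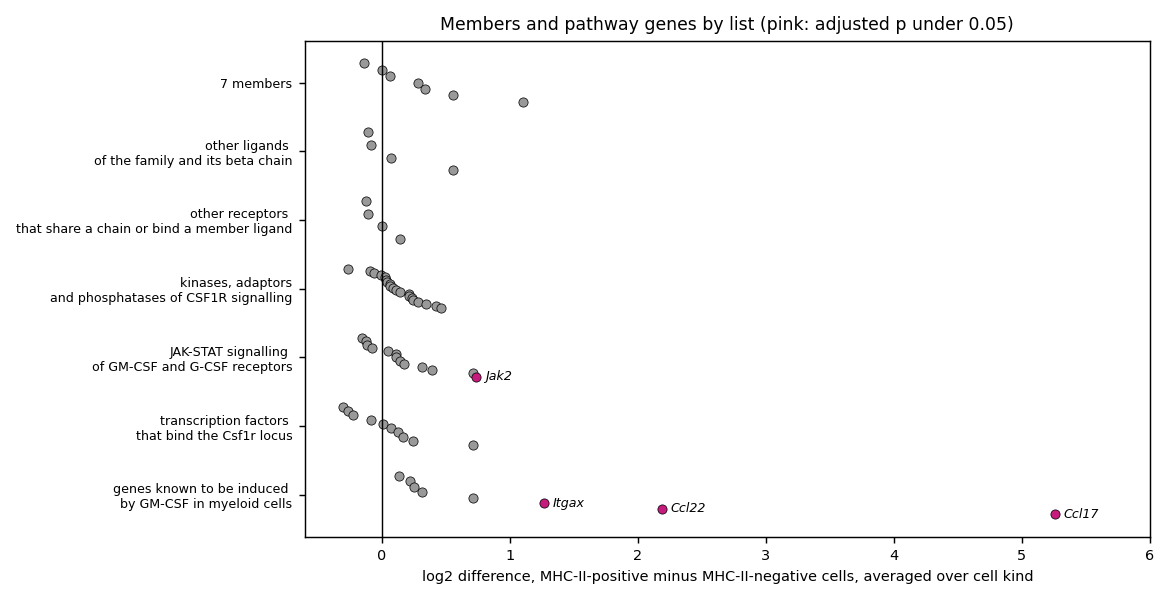
Log2 difference between the MHC-II classes, positive minus negative, averaged over melanophages and macrophages (x axis) for the 7 genes and the measured genes of 6 pathway lists (y axis), with genes at an adjusted p under 0.05 in pink and named. Ccl17, Ccl22, Itgax and Jak2 are the 4 that pass; Cish and Pim1 are in 2 lists and drawn in each.

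Csf2rb was the 1 gene of the 7 whose group means spanned at least 1 log2 unit (1.57). Among 461 other named genes with such a span, the 4 most like it over the 12 arrays were Fam117b (Pearson r = 0.973), the transcription factor Ets2 (0.956), the guanine nucleotide exchange factor Cyth1 (0.945) and Rassf2, a Ras-association domain protein (0.932). Deviations from the group means correlated with those of Csf2rb at 0.963, 0.941, 0.888 and 0.875. They come from the same arrays by which the genes were picked and are not a separate check. As with Csf2rb, the MHC-II differences of these 4 genes did not pass, at 0.70 ± 0.24 SE for Fam117b, 0.71 ± 0.28 for Ets2, 0.89 ± 0.29 for Cyth1 and 0.81 ± 0.27 for Rassf2 (adjusted p 0.327 to 0.447). The arrays of lowest value were replicate 2 of the MHC-II-negative melanophages and replicate 1 of the MHC-II-negative macrophages for all 5 genes. The points share group, array and RNA amplification, and the 4 genes were picked for the correlation, which is therefore given without a test.

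**Figure D5:**
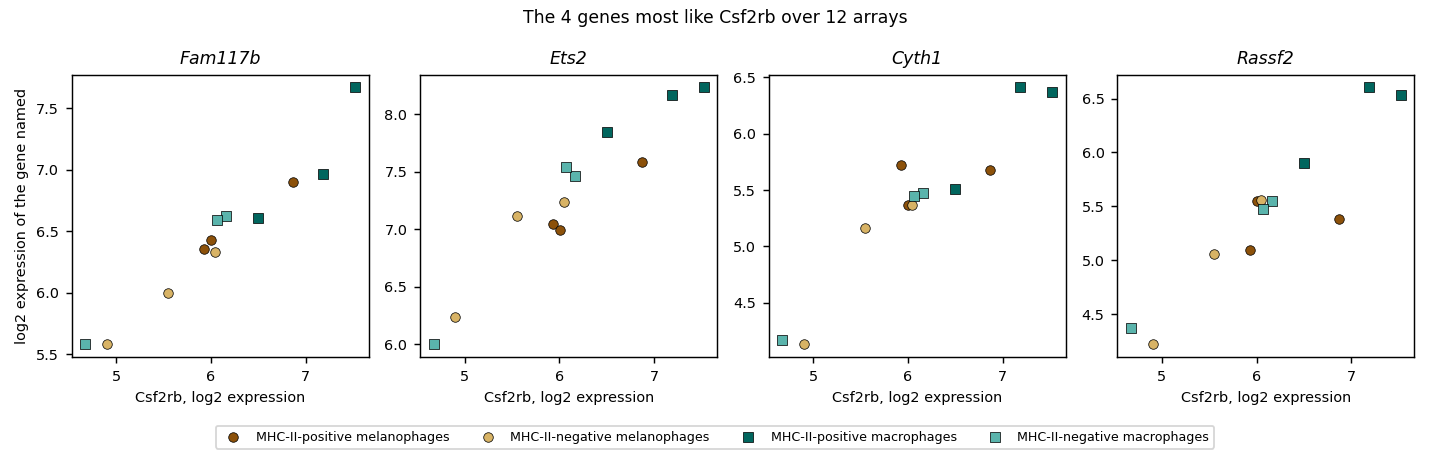
Log2 expression of Fam117b, Ets2, Cyth1 and Rassf2 (y axes) against Csf2rb (x axis) in the 12 arrays, coloured by group. The 2 arrays at the lower left are replicate 2 of the MHC-II-negative melanophages and replicate 1 of the MHC-II-negative macrophages, while replicates 1 and 2 of the MHC-II-positive macrophages lie at the upper right in each panel.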

How the data were processed

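RNA of 12 sorted skin cell samples was hybridised to Affymetrix arrays after extraction with the RNeasy Plus Micro kit and amplification with the Ovation Pico WTA system, per the labels' protocols. The authors deposited log2 values after RMA (background correction, quantile normalization and probe set summary) made with oligo, an R package. These steps are named per the submitters' processing notes, and neither versions nor a build were stated. Quantile normalization forces the arrays to one distribution, so a shift of all genes together would not be seen. Of the probe sets, 21789 had 1 gene symbol in the platform annotation, and the one with the highest mean over 12 arrays stood for each of 19938 genes. Each of the 7 genes had 1 such probe set. Differences between groups were tested with limma 3.58.1 in R 4.3.3 (lmFit and eBayes on 4 group means, all arrays in 1 fit, Benjamini-Hochberg over all genes, threshold 0.05). The 7 comparisons were the MHC-II difference averaged and within each cell kind, the melanophage difference averaged and within each MHC-II class, and their interaction; the 2 remaining pairs of groups were fitted only for the order of groups. The genes, pathway lists and marker lists were chosen with earlier results of these data known. Named were the 7 genes, every pathway gene that passed in a comparison, in each list with none the gene of smallest adjusted p, and the 4 named genes most correlated with a gene of the 7 whose group means spanned at least 1; other pathway and marker genes are named for their role and were chosen after their values were seen. Alternatives were a filter on dim genes, quantile normalization again, median centring, the mean of all probe sets, trended robust eBayes, array weights, sets of consecutive title codes as a block, the fit of 2 groups alone, and leaving out each array or both far arrays. Data were simulated for the averaged MHC-II comparison over 19938 genes. Each gene had its mean over the 12 arrays and the spread that limma had drawn towards a common value. Such spreads are more alike between genes than the observed ones. In these data 87% of changes of 1 and 100% of changes of 2 log2 units were called, with 9 false calls. The noise was independent and normal, and changes were placed only in genes with a mean above that of the median gene. Csf1 and Il34 lie below it. The shares are averages over genes of differing spread and do not give the power for any 1 gene, such as Csf2rb. The number of arrays limits the precision. No 2 arrays held identical values (0 of 66 pairs).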

Additional observations from a re-analysis of the deposited data

How the results depend on the processing

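None of the 7 genes passed in any of the 20 or 21 alternative fits of each of the 7 comparisons, and the lowest adjusted p was 0.0647, for Csf2ra between the MHC-II classes without MHC-II-positive macrophages replicate 3. The 27 member differences larger than their SE kept their direction in all 548 refits. Of the 22 that were not, 16 changed sign in at least 1 alternative (49 of 446 refits). The differences were split by their size in the main fit and the refits reuse its arrays, so a kept sign is not independent support. Over all genes, calls ranged from 96 to 215 between the MHC-II classes and from 1 to 117 between melanophages and macrophages, both averaged, the 117 being reached without both far arrays. Csf2rb in macrophages ranged from 0.96 to 1.72 on the log2 scale. The filter on dim genes kept 6399 genes and left out Csf1 and Il34. The Jak2 call was lost in 11 of 20 fits, the averaged Itgax call between cell kinds in 9 of 20, the Ccl17 call in melanophages with replicate 3 of the negative class left out (adjusted p = 0.0566) and in macrophages in the fit of those groups alone (0.0696). The causes were not tested. Labels give no shared replicate numbers. Sets of consecutive title codes, 1 array of each group, had deviations correlating from -0.25 to 0.27; as a block they changed no call of the 7 genes but ended the Jak2 call (adjusted p = 0.0728). Values near the array medians have no usable lower bound.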
